A study of Mus musculus with 24 samples.

Results

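The cytoplasmic ribosomal protein genes encode the protein part of the 60S and the 40S subunit of the ribosome. They were compared in ovaries of the mouse lines FL1 and DUKsi. Members were chosen by gene symbol alone, as probe sets annotated to a single gene whose symbol is Rpl or Rps with a number, or to Rplp0, Rplp1, Rplp2 or Rpsa. Rps6k kinases, mitochondrial ribosomal proteins and pseudogenes were left out. This gave 100 probe sets of 48 genes, out of 20380 probe sets of 12393 genes that were annotated to 1 symbol. The 60S subunit was represented by 26 genes with 46 probe sets and the 40S subunit by 22 genes with 54 probe sets. On the array each transcript is measured by a set of short oligonucleotides, called a probe set. Of the genes, 25 had 1 probe set and 23 had several, up to 6. A further 102 probe sets carried several symbols with a ribosomal protein gene among them and were not members, and 28 ribosomal protein genes were measured by such probe sets alone.

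FL1 is an outbred-derived line selected to generation 130 for an index of litter size and litter weight at birth. DUKsi is an inbred line from the same genetic pool that was not selected for a trait. Neither line carried a transgene or received a treatment, and animals were virgin females of 6 to 9 weeks whose ovaries were taken at metestrus. RNA of 30 animals per line was combined to 6 pools, each hybridized to 2 MOE 430A arrays. The methods give 5 animals per pool, whereas the sample labels give 6. Selection and inbreeding both separate the lines, so that their parts in a difference cannot be told apart. The pools of a line hold different animals and are the replicates here (n = 6 per line).

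In growing cells ribosomal proteins are made in nearly equal numbers and assembled with ribosomal RNA in the nucleolus. Their mRNAs are known for a 5' terminal oligopyrimidine (TOP) tract, a C at the first transcribed base followed by a run of C and T, through which mTOR signalling controls their translation. Translation is not measured on an expression array, which gives the amount of mRNA. In the ovary, growing follicles and the corpus luteum are both tissues of high protein synthesis. Several ribosomal protein genes have a paralog with a like name and a final l, some of which are made mainly in 1 tissue.

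The tract played no part in the choice of members, and it was found in many of them but not in all. To show starts with and without it, 30 bases around the annotated start are given for a selection of members, 15 of them before the start. The sequences are those of RefSeq on GRCm38.p6, read 5' to 3' on the transcribed strand. Capitals mark the match nearest to the start, a C followed by at least 4 bases that are each C or T, and the run of C and T can extend further upstream of them. Rps9 and Rpl14 are shown because their probe sets passed the test, Rps27 with Rps27l and Rpl22l1 as paralogs, and Rpl35, Rpl38, Rps6, Rps18 and Rplp2 as members that did not pass. The windows of Rpl41, Rps4x and Rpsa are shown as members without a match and have no capitals. Where a gene has several annotated starts, the window with the match is shown.
Rps9, chr7:3704026-3704055, plus strand: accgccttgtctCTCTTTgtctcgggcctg
Rpl14, chr9:120571502-120571531, plus strand: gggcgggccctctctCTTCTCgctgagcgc
Rpl35, chr2:39005117-39005146, minus strand: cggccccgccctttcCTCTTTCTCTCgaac
Rpl38, chr11:114668565-114668594, plus strand: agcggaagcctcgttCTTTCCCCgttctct
Rplp2, chr7:141447636-141447665, plus strand: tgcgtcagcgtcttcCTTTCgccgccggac
Rpl22l1, chr3:28805493-28805522, plus strand: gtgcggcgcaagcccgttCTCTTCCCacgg
Rps6, chr4:86857353-86857382, minus strand: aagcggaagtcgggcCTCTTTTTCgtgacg
Rps18, chr17:33955651-33955680, minus strand: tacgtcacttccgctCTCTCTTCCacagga
Rps27, chr3:90213634-90213663, minus strand: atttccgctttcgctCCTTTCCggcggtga
Rps27l, chr9:66946071-66946100, plus strand: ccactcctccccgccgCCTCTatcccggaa
Rpl41, chr10:128549154-128549183, minus strand: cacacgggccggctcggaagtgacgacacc
Rps4x, chrX:102189377-102189406, minus strand: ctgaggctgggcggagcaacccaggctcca
Rpsa, chr9:120127751-120127780, plus strand: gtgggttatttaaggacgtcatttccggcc

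Of the 48 member genes, 42 had an annotated start in the RefSeq table. Rpl7, Rpl8, Rps14, Rps20, Rps29 and Rps4l had none there. A match began within 15 bases of a start in 30 of the 42 genes (71.4%), against 44.9% of the 27025 genes in the table. It began within 2 bases of a start in 14 (33.3%), against 10.6% of all genes. In Rpl14, Rpl35, Rpl38, Rplp2, Rps6, Rps18 and Rps27 a match could be read from the annotated start itself, in Rps9 from 3 bases before it and in Rpl22l1 from 3 bases after it. In each of the former the base just before the start was a C or T as well, so that the run of C and T is longer than the match. In 12 genes, among them Rpl37a, Rpl41, Rpl7l1, Rps28, Rps4x and Rpsa, these letters did not begin within 15 bases of the annotated start. Only the transcribed strand was searched. The shares are descriptions of annotated starts, which can lie some bases from the true one.

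The deposited values were MAS5 signals, a linear intensity per probe set that the authors had scaled to a common level per array. The 24 arrays had a trimmed mean signal of 500.1 each, so that total mRNA per cell was not measured, and the number of arrays limits the precision. RNA integrity was read from the beta-actin control, whose 3' over 5' signal came to 1.67 ± 0.423 over the FL1 pools against 1.27 ± 0.0522 over the DUKsi pools (SD, n = 6 each). FL1 pool 3 stood apart with a ratio of 2.45. The part of RNA quality in the results was not tested beyond the values given beside them.

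Across the group, the array signal of ovarian ribosomal protein mRNA differed little between the lines. Of the 100 member probe sets 2 passed the test, Rps9 higher and Rpl14 lower in FL1, and both also differed by at least 1.5-fold. The test was limma over the 22626 probe sets that are not controls, with an adjusted p under 0.01. Over all of these, 764 passed (3.38%), against which 2 in 100 members was no excess. In the direction of higher signal in FL1 1.83% of all probe sets passed, and 1 member did. In the other direction 1.55% of all passed, and again 1 member. With the 1.5-fold limit added, 2.32% of all probe sets passed and 2 members. At an unadjusted p under 0.05 there were 20 members, against 19.8% of all probe sets, namely 14 of the 46 of the 60S subunit (30.4%) and 6 of the 54 of the 40S subunit (11.1%). The difference between the subunits was not tested. In an RNA sample of whole ovary, fewer cells of a type and less mRNA per cell cannot be told apart.

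The median log2 fold change of FL1 over DUKsi was 0.04 over the members and -0.07 over all probe sets, and the members' median was -0.03 after quantile normalization and -0.04 with the actin ratio as a covariate. It was 0.04 for the 60S and 0.04 for the 40S members, with 58 members above 0 and 42 below. The members did not run above other probe sets of high signal. At a mean signal of 5000 or more the median was 0.05 over 59 members and 0.07 over 296 probe sets without a ribosomal protein symbol. For 81 of 100 members the whole 95% confidence interval of the fold change lay within 1.5-fold in either direction, which held for 53.5% of all probe sets.

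**Figure D1:**
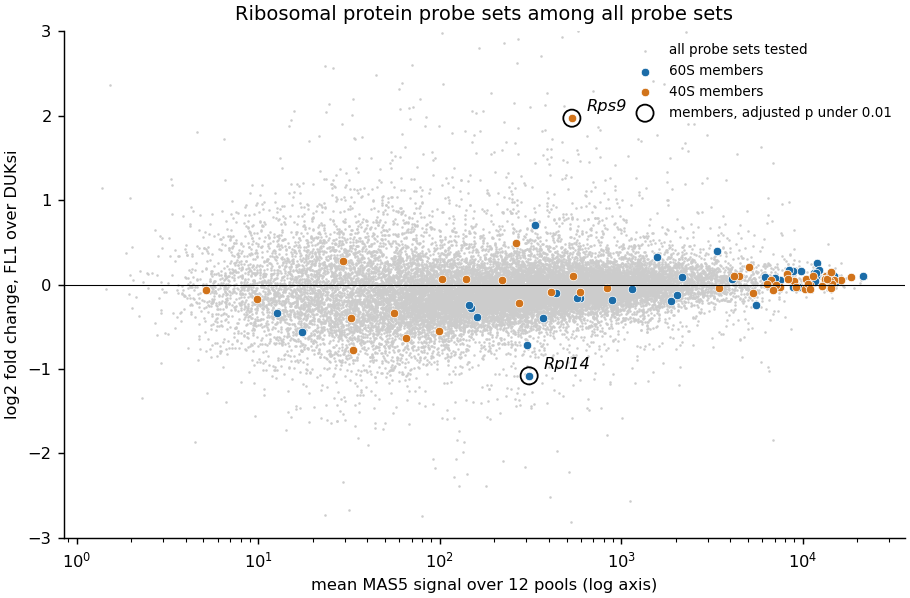
Log2 fold change of FL1 over DUKsi (vertical) against the mean MAS5 signal over the 12 pools (horizontal, log axis) for all 22626 probe sets in grey, the 46 members of the 60S subunit in blue and the 54 of the 40S subunit in orange. Most members lie close to 0 at signals of 5000 or more, and the circled probe sets of Rps9 and Rpl14 passed the test. The axis ends at 3 in either direction, and 17 probe sets that are no members lie beyond it.

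The width of these intervals followed the signal. Of the members, 59 probe sets of 34 genes had a mean signal of 5000 or more, and here the interval of all 59 lay within 1.5-fold. Among the other 296 probe sets of that signal which carry no ribosomal protein symbol, it was 90.5%. The median signal was 11514 over the 59 members and 6742 over the 296 others, and the highest signal on any array was 26218. For Ifi205, the paper names the limited dynamic range of hybridization as a possible reason for a smaller difference on the array than by qPCR. Whether fold changes were compressed at the signals of the members was not tested. Fold changes of these 59 ran from -0.24 for 1 of 3 Rpl7 probe sets to 0.26 for Rpl10a on the log2 scale. None of the 59 passed the test by limma, 9 had an unadjusted p under 0.05 (15.3%), and among the 296 others 34.8% had. At lower signals the estimates were wider. Of the 17 members with a signal from 48.6 to 500, Rpl14 among them, 41.2% had an unadjusted p under 0.05 against 19.8% of all probe sets of that signal, and 23.5% differed by 1.5-fold against 7.37%. Their median log2 fold change was -0.25, against -0.12 for all probe sets of that signal. These shares were not tested. Of the 7 members under a signal of 48.6, the upper bound of the dimmest 20% of all signals, no interval lay within 1.5-fold, and for these no statement on a difference is possible. For 14 genes, 10 of the 60S and 4 of the 40S subunit, no probe set annotated to the gene alone reached a signal of 5000. For Rpl12, Rpl14, Rpl27a, Rpl37, Rpl39, Rps27 and Rps6 among them, a probe set with several symbols did. In Rpl27a, named after its values were seen, the log2 fold change was -0.72 in the member 1437729_at (SE 0.316, adjusted p = 0.217) and 0.01 in 1426661_at with several symbols (SE 0.0647).

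Rps9, a 40S protein that binds early in the assembly of the small subunit, had 3 probe sets that gave different answers. In probe set 1434624_x_at the lowest, median and highest signals were 531, 855 and 1159 in FL1 and 167, 209 and 321 in DUKsi. Every FL1 pool lay above every DUKsi pool. The mean signal reached 853 ± 204 in FL1 against 217 ± 55.6 in DUKsi (SD, n = 6 each), a ratio of 3.93, with a log2 fold change of 1.97 (SE 0.177) and an adjusted p of 3.14e-06 by limma. The suffix x marks probe sets in which some oligonucleotides also match other sequences, so that the transcript behind the signal is uncertain. In probe set 1433689_s_at, signals ran from 8375 over a median of 9215 to 9768 in FL1 and from 8485 over 9540 to 9768 in DUKsi. The lines overlapped there, and the log2 fold change was -0.03 (SE 0.0629, adjusted p = 0.838). In probe set 1426958_at, signals ran from 157 over 219 to 322 in FL1 and from 176 over 225 to 249 in DUKsi, and the log2 fold change was 0.05 (SE 0.164, adjusted p = 0.904). The higher signal in FL1 was thus found in 1 of 3 probe sets annotated to Rps9 alone.

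Rpl14, a 60S protein, was the member on the list of differing transcripts in the study, which was made from these same samples. In probe set 1422128_at, the lowest, median and highest signals were 162, 199.98 and 234 in FL1 and 334, 433 and 476 in DUKsi. All FL1 pools lay below all DUKsi pools. The mean was 199.8 ± 23.6 in FL1 and 423 ± 48.3 in DUKsi, a ratio of 0.473, and on the log2 scale the change was -1.08 (SE 0.112, adjusted p = 1.39e-05). Another 5 probe sets were annotated to Rpl14 together with its pseudogene Rpl14-ps1. Their log2 fold changes were all below 0, from -0.24 to -0.02, with adjusted p from 0.0484 to 0.931. In 1 of them, 1438626_x_at, signals ran from 5007 over 5685 to 6318 in FL1 and from 5307 over 6242 to 7473 in DUKsi. The lines overlapped in each of the 5, and none passed the test.

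**Figure D2:**
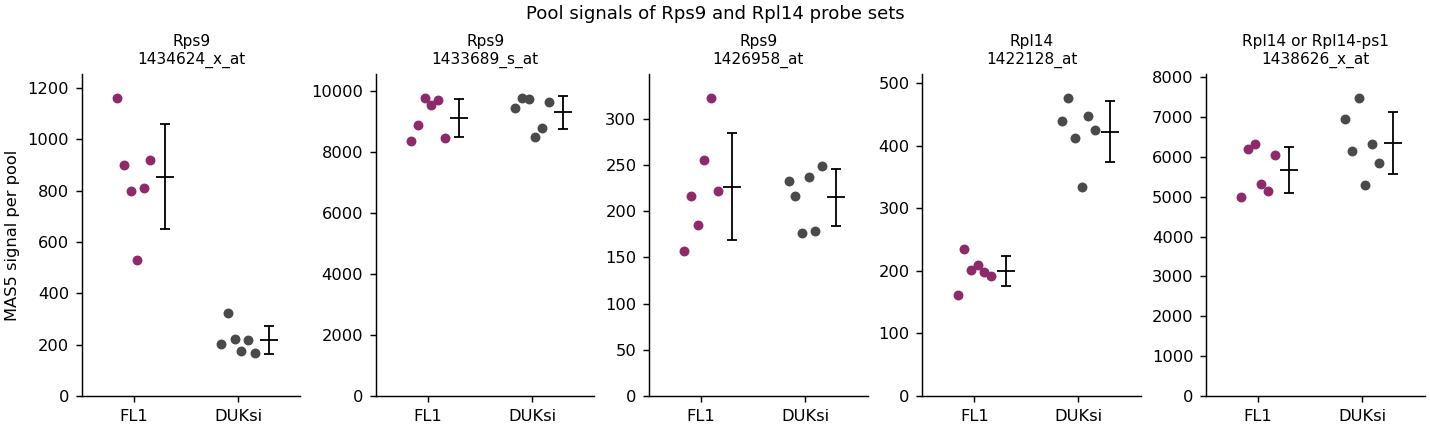
MAS5 signal per pool (vertical, from 0, a scale of its own in each panel) in FL1 and DUKsi for 3 probe sets of Rps9, the Rpl14 probe set 1422128_at and probe set 1438626_x_at of Rpl14 or its pseudogene. Points are the 6 pools of a line, and the bar beside them is the mean with its SD. The lines separate in the first and the fourth panel and overlap in the others.

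Among the other proteins of the 60S subunit, none passed the test. The nearest was Rpl10a, named after its values were seen, a protein of the L1 stalk that contacts leaving tRNA. Its signals ran from 12197 over 12911 to 14572 in FL1 and from 10477 over 11000.2 to 11308 in DUKsi. The lines did not overlap, and the mean was 13044 ± 910 in FL1 against 10912 ± 350 in DUKsi, and the log2 fold change was 0.26 (SE 0.0585, adjusted p = 0.0138). It passed the test after scaling the arrays to the same median or leaving out dim probe sets. Scaling to the same median also raised the median fold change over all members. Rpl12, also named after its values were seen, belongs to the base of the stalk where elongation factors bind. Its signals ran from 255 over 338 to 393 in FL1 and from 389.7 over 419 to 460 in DUKsi. The ranges overlapped only at their ends, and the log2 fold change was -0.39 (SE 0.118, adjusted p = 0.058). The brighter Rpl12 probe sets with several symbols did not show this, with log2 fold changes of 0.07 in 1416026_a_at (adjusted p = 0.715) and -0.005 in 1435725_x_at (adjusted p = 0.978).

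The genes of the 60S subunit that were named by their signal did not pass the test either. Rpl41, the smallest ribosomal protein, had signals from 20064 over 22403 to 25724 in FL1 and from 17258 over 21388 to 23015 in DUKsi, and the log2 fold change was 0.10 (SE 0.081, adjusted p = 0.521). For Rpl38, which is known for a role in the translation of Hox mRNAs, the log2 fold change was 0.04 (SE 0.0836, adjusted p = 0.835). For Rpl7a, it was 0.04 (SE 0.0658, adjusted p = 0.801). The pools of the lines overlapped in all of them.

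The stalk proteins Rplp0 and Rplp2, which recruit elongation factors, and Rpsa, a 40S protein also known as the laminin receptor, were measured. Rplp0 ranged from 10353 over 12020 to 12697 in FL1 and from 10905 over 11509 to 12355 in DUKsi, and its log2 fold change was 0.04 (SE 0.0622, adjusted p = 0.756). Rplp2 ranged from 14393 over 15315 to 17188 in FL1 and from 12946 over 14237 to 16275 in DUKsi, with 0.10 (SE 0.0664, adjusted p = 0.437). Rpsa ranged from 11002 over 11777 to 12648 in FL1 and from 10066 over 10975 to 12121 in DUKsi, with 0.10 (SE 0.0616, adjusted p = 0.420). None of them passed, and the lines overlapped in each. Rplp1 was measured by probe sets with several symbols alone.

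In the 40S subunit, no other gene than Rps9 passed. Rps29 ranged from 17462 over 19210.0 to 20167 in FL1 and from 15285 over 18270.3 to 18938 in DUKsi, and the log2 fold change was 0.09 (SE 0.0679, adjusted p = 0.481). For Rps28, which lies near the mRNA exit, it was 0.05 (SE 0.0585, adjusted p = 0.689). Rps6, the protein that S6 kinase phosphorylates below mTOR, had 0.10 in its brighter probe set (SE 0.0759, adjusted p = 0.529) and -0.34 in the other (SE 0.244, adjusted p = 0.479). Probe sets of Rps6 or its pseudogene had log2 fold changes from -0.20 to 0.09, and none passed. For Rps18, a protein of the 40S head, 1 of 6 probe sets, 1435712_a_at, did not overlap between the lines. Its signals ran from 14418 over 14669 to 15309 in FL1 and from 12808 over 13616 to 14186 in DUKsi, a ratio of 1.09 (log2 fold change 0.13, SE 0.0533, adjusted p = 0.187). In all, 4 members did not overlap between the lines, namely Rps9, Rpl10a and Rps18 above and Rpl14 below in FL1. Over all probe sets this was found in 4.62%, which is close to the members' 4 in 100.

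The paralogs were each set beside the gene they are named for. Rps4l, the paralog of the X-linked 40S gene Rps4x, ranged from 225 over 308 to 363 in FL1 and from 188 over 219 to 253 in DUKsi. Of the FL1 pools all but pool 4 lay above every DUKsi pool. The mean was 308 ± 49.8 in FL1 and 219 ± 25.4 in DUKsi, a ratio of 1.41, and the log2 fold change was 0.49 (SE 0.128, adjusted p = 0.0304). It missed the threshold with all pools, whereas without FL1 pool 4, the lowest FL1 pool, the adjusted p was 0.00823. This was the only alternative in which Rps4l gained a call at an adjusted p under 0.01. Rps4x itself ranged from 13278 over 13969 to 14677 in FL1 and from 12255 over 13331 to 14516 in DUKsi, and its log2 fold change was 0.06 (SE 0.056, adjusted p = 0.584).

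Rpl22, a 60S protein known for its role in lymphocyte development, had 2 probe sets. Their log2 fold changes were 0.40 (SE 0.164, adjusted p = 0.187) and 0.33 (SE 0.0998, adjusted p = 0.0634). In the first, signals ran from 3090.0 over 3808 to 4055 in FL1 and from 1753 over 3150.4 to 4004 in DUKsi, so that the spread between pools was wider in DUKsi. The second, 1448398_s_at, passed the test after scaling the arrays to the same median, which also raised the median fold change over all members. Rpl22l1, its paralog, ranged from 3767 over 4235 to 4624 in FL1 and from 3646 over 3989.9 to 4288 in DUKsi, and the log2 fold change was 0.07 (SE 0.0655, adjusted p = 0.616).

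The other paralogs did not pass either. Rps27l, a 40S paralog known as a target of p53, had log2 fold changes from 0.10 to 0.21 in its 3 probe sets, and the Rps27 probe set 1460699_at had -0.22 (SE 0.165, adjusted p = 0.493). The brighter 1415716_a_at of Rps27 or Rps27rt had 0.10 (SE 0.0624, adjusted p = 0.401). Rpl39l, known for its expression in testis, ranged from 112 over 130.2 to 187 in FL1 and from 159 over 177 to 206 in DUKsi, with -0.39 (SE 0.154, adjusted p = 0.163). Its partner Rpl39 had -0.16 (SE 0.12, adjusted p = 0.5004), and -0.09 in the brighter 1450840_a_at with several symbols (adjusted p = 0.626). Rpl7l1 had -0.19 (SE 0.0693, adjusted p = 0.136) and -0.10 in its 2 probe sets. In the first of these, all FL1 pools but pool 1 lay below every DUKsi pool. Rpl7 had 0.04 in the brightest of 3 (SE 0.0517, adjusted p = 0.733). Rpl3l, the paralog of muscle, was dim, from 7.65 over 10.8 to 29.4 in FL1 and from 9.35 over 18.1 to 47.3 in DUKsi, with a wide error around its log2 fold change of -0.57 (SE 0.431, adjusted p = 0.510). The difference in fold change between a gene and its paralog was not tested.

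**Figure D3:**
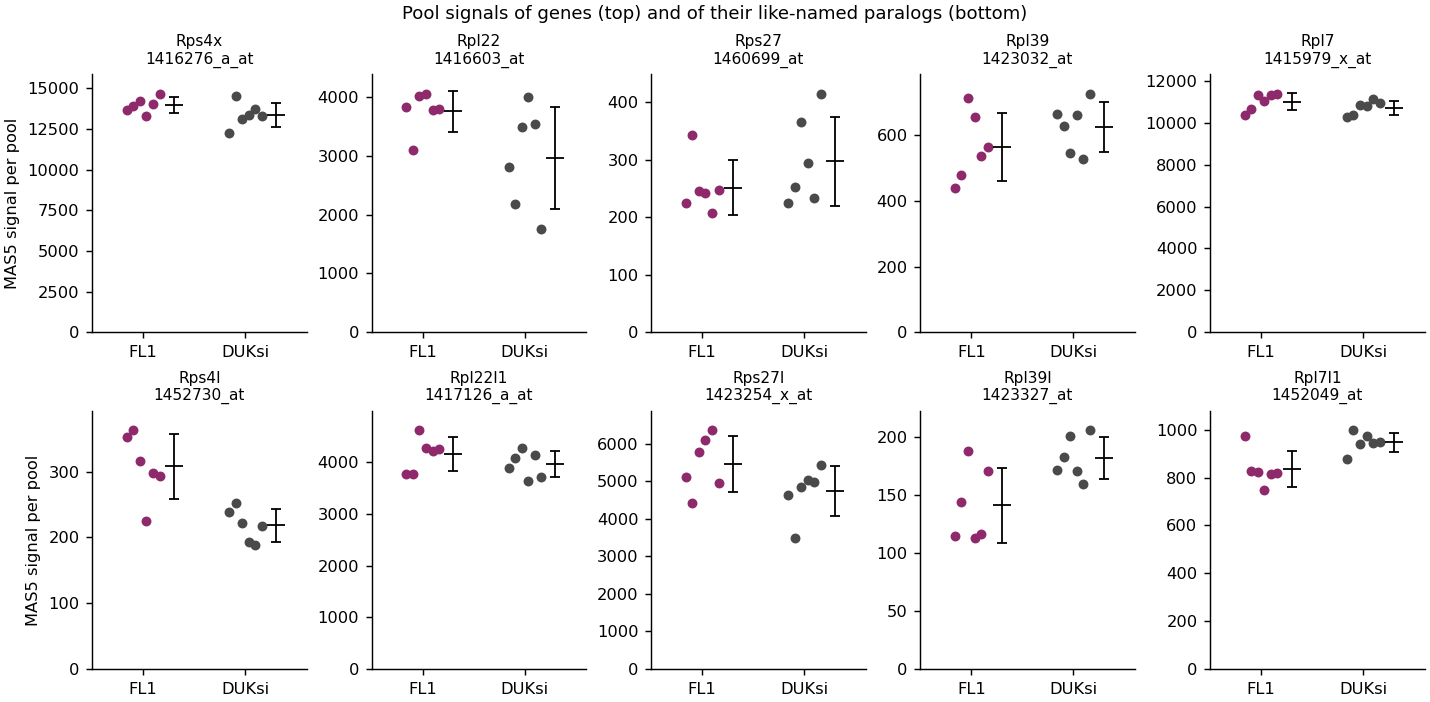
MAS5 signal per pool (vertical, from 0, a scale of its own in each panel) in FL1 and DUKsi for 5 ribosomal protein genes in the top row and their like-named paralogs below. Points are the 6 pools of a line, and the bar is the mean with its SD. In Rps4l 1 FL1 pool lies within the range of DUKsi and the others above it. In Rpl7l1 1 FL1 pool lies within the range of DUKsi and the others below it.

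Where a gene had several probe sets of a signal of 5000 or more, they gave like values. Over 14 such genes the log2 fold changes of a gene's probe sets differed by a median of 0.08 and by 0.28 at most, in Rpl7. Wider spreads came with dimmer probe sets. In Rps9, Rps18, Rps24 and Rpl37a the probe sets of a gene differed by more than 0.5 in log2 fold change. Rps18 ran from -0.78 to 0.13, where its probe sets of high signal lay at 0.01 to 0.13 and those below a signal of 100 at -0.78, -0.63 and -0.40. Rps24 ran from -0.55 to -0.04, the lowest being 1436500_at (SE 0.211, adjusted p = 0.150). Rpl37a ran from 0.01 to 0.71, the highest being 1416218_x_at with signals from 173 to 741 in FL1 and 143 to 443 in DUKsi (SE 0.369, adjusted p = 0.308). Rpl35, with 6 probe sets, ran from -0.28 to 0.18, and 1434231_x_at at 0.18 had an adjusted p of 0.111. Rps9 remained the gene in which 1 probe set passed and its others did not.

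**Figure D4:**
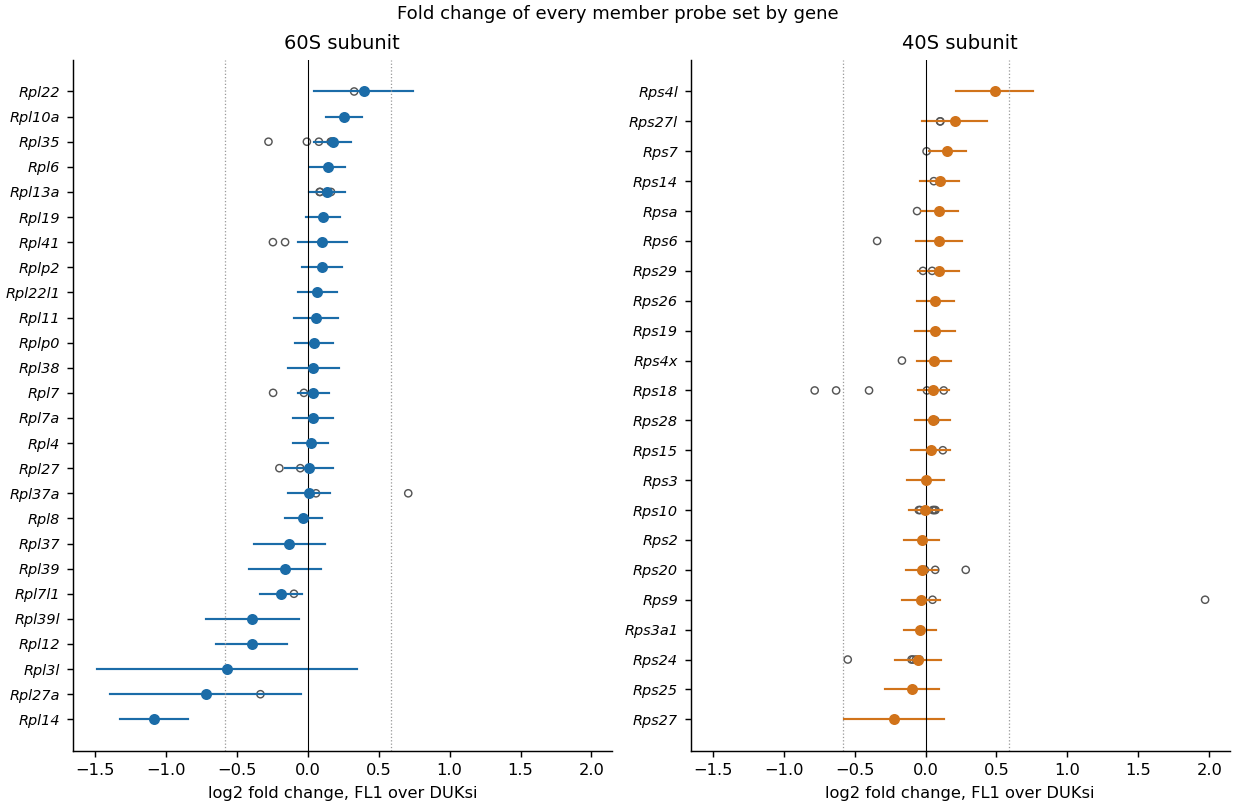
Log2 fold change of FL1 over DUKsi (horizontal) for all 100 member probe sets of the 26 genes of the 60S and 22 genes of the 40S subunit. Filled points with their 95% confidence interval are the probe set of highest signal of a gene, open circles its other probe sets, and dotted lines mark 1.5-fold in either direction. Apart from Rpl14, Rpl27a and the open circles of Rps9, Rps18 and Rpl37a, no point lies beyond the dotted lines.

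By the brightest probe set of each gene, 31 genes lay above 0 and 17 below. Probe sets with the suffixes s or a, shared between transcripts or between forms of 1 gene, had a median log2 fold change of 0.07 (30 probe sets), those with x 0.04 (40) and those with neither -0.13 (30). The last had a median signal of 289, against 10118 and 8623 for the others. The 102 probe sets with several symbols had a median of 0.02, and 1 of them passed, against 3.38% of all probe sets. It was 1423666_s_at of Rpl5 or its pseudogene, named after its values were seen. Rpl5 carries the 5S RNA into the 60S subunit. Its signals ran from 744 over 936 to 1114 in FL1 and from 465 over 491 to 533 in DUKsi, and the log2 fold change was 0.92 (SE 0.0931, adjusted p = 1.1e-05). The other 2 probe sets of Rpl5 had log2 fold changes of 0.11 and 0.30 and adjusted p of 0.320 and 0.275.

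The members varied less between pools than the array as a whole. The median SD of log2 signal between pools was 0.126 in FL1 and 0.107 in DUKsi, against 0.281 and 0.224 over all probe sets. For the 59 members of a signal of 5000 or more it was 0.0931 and 0.0921, and for the 296 others of that signal 0.122 and 0.101. The 2 arrays of a pool differed by a median of 0.0774 in log2 signal over these 59 members. The summed member signal was 4.82% ± 0.121 of all signal in FL1 and 4.69% ± 0.145 in DUKsi, with pools from 4.68% to 4.97% and from 4.45% to 4.81%. The lines overlapped in this share.

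The spread of the pools within a line was wider than the distance between the lines. The median deviation of a pool's member signals from the mean of the 12 pools ran from -0.05 to 0.10 in FL1 and from -0.10 to 0.04 in DUKsi on the log2 scale. The lines' means differed by 0.03, with an SD between pools of 0.0559 in FL1 and 0.0522 in DUKsi. The highest was FL1 pool 3, the pool with the highest 3' over 5' actin signal, and DUKsi pool 1 was the lowest. The 60S and the 40S members went together in these pools, at 0.08 and 0.10 in FL1 pool 3 and at -0.09 and -0.10 in DUKsi pool 1. They lay further apart in DUKsi pool 2, at 0.095 for the 60S, the highest 60S value of the pools, and 0.032 for the 40S members. Probe sets outside the group had extremes in FL1 pool 3 and DUKsi pool 1 too. Over all probe sets the median deviation was 0.08 in FL1 pool 3, the highest of the pools, and 0.02 in DUKsi pool 1. Over the other probe sets of a signal of 5000 or more it was 0.02 in FL1 pool 3. In DUKsi pool 1 it was -0.08, the lowest of the pools. Within lines, a pair of members of a signal of 5000 or more correlated with a median r of 0.28 over the 12 pools, and a pair of the other probe sets of that signal with 0.06. It was 0.21 among 60S, 0.33 among 40S and 0.26 between 60S and 40S members. These correlations describe pools that share array, scaling and RNA quality, and many probe sets share a gene.

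**Figure D5:**
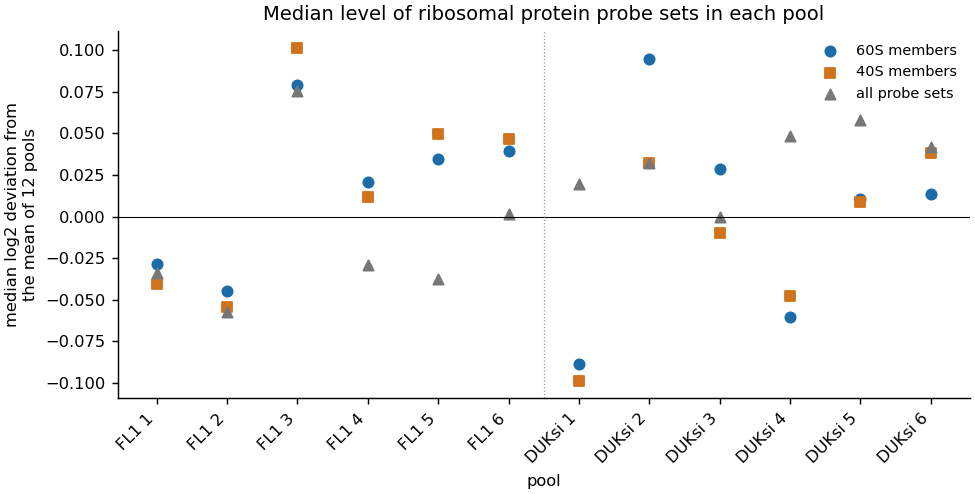
Median log2 deviation of the 60S members (circles), the 40S members (squares) and all probe sets (triangles) in each of the 12 pools from the mean over the pools. FL1 pools are left of the dotted line. The ribosomal protein values of the lines overlap, with FL1 pool 3 near 0.10 and DUKsi pool 1 near -0.10. In DUKsi pool 2 the 60S members lie at 0.095 and the 40S members at 0.032.

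Genes that work with the ribosomal proteins were counted in lists by symbol, with the brightest probe set of each gene. Over all probe sets 1.83% passed as higher and 1.55% as lower in FL1, beside which the counts of the lists are to be read. Of 74 mitochondrial ribosomal protein genes 1 rose, Mrpl35, and none fell, with a median log2 fold change of 0.02. Mrpl35 was 1306 ± 108 in FL1 and 771 ± 93.3 in DUKsi, and the log2 fold change was 0.76 (SE 0.0861, adjusted p = 3.27e-05). It was on the list of the study, which rests on these same samples. Of 20 other genes with TOP mRNAs, such as the elongation factors Eef1a1 (log2 fold change 0.06, adjusted p = 0.643) and Eef2 (0.09, adjusted p = 0.481), none passed, with a median of 0.06. Of 54 ribosome assembly factors, such as nucleolin, Ncl (-0.10, adjusted p = 0.373), none passed, with a median of -0.05.

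Of 19 genes of growth signalling to the ribosome 1 rose and 1 fell. Mtor, the kinase of the TOR complexes, ranged from 900.2 over 975 to 1072 in FL1 and from 687 over 773 to 873 in DUKsi, and the log2 fold change was 0.33 (SE 0.0723, adjusted p = 0.00996). Its call was lost in 19 of 24 alternatives, with adjusted p up to 0.0567. Tsc1, part of the complex that restrains mTOR, ranged from 246 over 273 to 321 in FL1 and from 342 over 401 to 415 in DUKsi, and the log2 fold change was -0.49 (SE 0.0913, adjusted p = 0.00332). Its call was lost in 8 of 24 alternatives, with adjusted p up to 0.0332. The lines did not overlap in either gene. They did not overlap in Rps6ka3 (FL1 above, adjusted p = 0.0903) and Eif4ebp2 (FL1 below, adjusted p = 0.0482) of this list either, and these did not pass. Over all probe sets 4.62% did not overlap and 3.38% passed. The median of this list was 0.02. No list was tested as a set.

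Some luteal, granulosa cell and oocyte markers passed the test, where over all probe sets 1.83% passed as higher and 1.55% as lower in FL1. The luteal list had 10 measured genes, of which 5 rose in FL1 (Cyp11a1, Hsd17b7, Ptgfr, Idh1 and Fdx1), and its summed signal was 71846 to 84957 in FL1 and 36855 to 56603 in DUKsi. Of 11 granulosa cell markers 3 fell (Inhba, Ccnd2 and Cdh2), with a summed signal of 44370 to 50455 in FL1 and 51805 to 59738 in DUKsi. Of 10 oocyte markers Zp3 fell, with summed signals of 7777 to 10422 and 10383 to 12364. Markers of ovary, among them the oocyte gene Zp3 and the granulosa gene Inhba, were above the dim level of 48.6. Single genes passed among blood (Alas2 of 5), surface epithelium and oviduct (Upk3b of 9) and smooth muscle markers (Myl9 of 6). None passed among 5 theca and 12 macrophage and lymphocyte markers, and no list was tested. The summed signals of these lists overlapped between the lines, and of the blood markers Slc4a1 was below the dim level. The part of cell composition in the ribosomal protein values was not tested.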

How the data were processed

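Ovary RNA of 6 FL1 and 6 DUKsi pools went onto MOE 430A arrays, 2 for each pool. The deposited values are intensities on a linear scale, MAS5 signals that the authors scaled to a common level per array. The MAS5 version is not given with the samples. The members and the gene lists were chosen with earlier results of these data known. Array pairs of a pool were averaged, and log2 means were tested in R 4.3.3 with limma 3.58.1 (empirical Bayes with a variance trend) over 22626 probe sets, the 64 control probe sets left out, with Benjamini-Hochberg adjustment and a threshold of 0.01. The ratio is that of mean signals. Confidence intervals are those of limma at 95%. The procedure was tested on simulated signals. The authors' further threshold on comparison calls was not used.

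Probe sets were named through the array's annotation table, in which 20380 of the tested probe sets had 1 symbol, 691 several and 1555 none. The kinase gene Rps6kl1 meets the letters of the symbol rule and was left out. Genes were named by rule: genes past the threshold, Rpl14, paralogs with their partners, stalk proteins and Rpsa, the 5 genes of widest spread between probe sets, and the 3 genes of highest signal per subunit. Rpl10a, Rpl12, Rpl27a, Rps6, Rpl5 and the genes of the lists came from outside this rule. A gene is given by its probe set of highest mean signal. The dim level is the lower 20% of all signals. A starting tract was searched in RefSeq promoter windows. Alternatives were single arrays, the mean of log2 values, other scalings, a constant added before log2, dim probe sets left out, limma without trend, the methods' t-test, the pool number as a block, the actin ratio as a covariate, a threshold of 0.05, fewer or other probe sets, a strict symbol rule and each pool left out. Adding the probe sets with several symbols and leaving out FL1 pool 3 with DUKsi pool 4 were chosen after seeing the data.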

Additional observations from a re-analysis of the deposited data

Results flagged for a closer look

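In 56 sets of 6 pools, those of the genes named by rule, a pool was looked for that lay far from the other 5 of its line by Dixon's ratio. It was found in 8. A rate of about 1 in 20 holds for independent sets of normally distributed values. These sets share their pools and hold signals on a linear scale, so that the count was not tested against that rate. On the low side, the signal of Rpl22 in probe set 1416603_at was 3090.0 in FL1 pool 2 (others 3775 to 4055), that of Rps18 in 1448739_x_at was 13468 in DUKsi pool 1 (others 14448 to 14966), and that of Rps29 in 1415833_x_at was 15285.4 in DUKsi pool 1 (others 17572 to 18938). On the high side, Rps27 was 343.5 in FL1 pool 2 (others 207 to 248), Rpl7l1 was 974.1 in FL1 pool 1 (others 748 to 826), and Rps9 in 1434624_x_at was 321.05 in DUKsi pool 2 (others 167 to 223). The dim Rpl3l was high in both lines, at 29.4 in FL1 pool 3 (others 7.65 to 15.8) and at 47.25 in DUKsi pool 5 (others 9.35 to 23.5). DUKsi pool 1 was also the pool of the lowest median over all members, at -0.10 on the log2 scale.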

How the results depend on the processing

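The calls of Rpl14 and of Rps9 in 1434624_x_at were kept under all 24 alternatives run for named probe sets. Rpl14 ran from -1.15 to -0.92 in log2 fold change (adjusted p 6.47e-06 to 0.000443) and Rps9 from 1.75 to 2.10 (adjusted p 1.25e-06 to 0.00244). Of 695 values of named probe sets under alternatives, 641 kept their direction and side of the threshold, 26 that were not called changed sign, 27 lost a call (Mtor and Tsc1), 1 gained one (Rps4l without FL1 pool 4) and 0 called values reversed. The members' median log2 fold change of 0.04 was -0.0254 after quantile normalization, 0.13 with the same median per array (0.02 over all probe sets), -0.0406 with the actin ratio as a covariate and -0.13 without shared probe sets (suffix x, s or a). The count of 2 members past the threshold, with 1 higher in FL1, became 4 with 3 higher under the same median per array (adding Rpl10a and Rpl22) and 4 with 3 higher at an adjusted p under 0.05 (adding Rpl10a and Rps4l). It became 1 with 0 higher without shared probe sets and likewise with 1 probe set per gene, and the count with 1.5-fold was 1 in both, since these settings leave out the Rps9 probe set. Those higher were 2 without dim probe sets and 2 with several-symbol probe sets added, and those lower were 2 with the actin covariate (adding Rpl27a). Leaving out each pool in turn gave 1 to 2 higher, 2 to 3 in all, 1 lower and a median of 0.01 to 0.05. With the pool number as a block 2 members passed, and the deviations of same-numbered pools correlated at -0.24 to 0.12, so that the numbers do not pair the samples. Low signal limits the 7 members below the dim level, whose intervals were wide. The cause of these shifts was not tested.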
